A study of Mus musculus with 6 samples.

Results

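The proteasome is the protease that degrades ubiquitin-tagged proteins in the cytosol and nucleus. Its core particle is a stack of alpha rings around beta rings, and some of the beta subunits carry the proteolytic sites. A regulatory particle, made of an ATPase-containing base and a lid, receives ubiquitin-tagged proteins, unfolds them and feeds them into the core. Other caps, called activators, can open the core without it. Dedicated chaperones build the core and the base, and beta cells, which make and fold large amounts of proinsulin, depend on the proteasome to clear misfolded protein.

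The mRNAs of this machine were examined in RNA that came down with an antibody against hnRNPK, an RNA-binding protein whose KH domains prefer C-rich single-stranded RNA. The members were chosen by gene symbol alone, as Psma to Psmg followed by a digit. Of 54 such symbols, 4 belong to pseudogenes (Psmb5-ps, Psmb6-ps, Psmb6-ps2 and Psmb7-ps2) and were left out, which leaves 50 of the 53379 genes in the tables. No count entered that choice, but the group was selected on its difference between IP and total RNA in earlier results of these same libraries. Its counts, folds and medians are therefore a description of these libraries, and no test was run over the list. One member, Psmc3ip, fits the pattern by symbol only, since it encodes a meiotic recombination factor and no part of the proteasome.

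All 6 libraries came from Min6, an insulin-secreting line derived from a mouse insulinoma, at passage 31. Every culture had received 25 mM glucose with 500 µM palmitic acid for 30 h, a treatment labelled glucolipotoxicity, so no untreated state and no primary islet is represented. The hnRNPK IP group holds 3 libraries of RNA recovered from 200 µg of lysate protein, and the Total RNA group holds 3 libraries of RNA taken from a 10% input of lysate. Total counts were 38764925 to 46222181 in the IP and 46185284 to 52735957 in total RNA. The IP libraries were the less even group, with a biological coefficient of variation of 43.1% against 12%. All 14 beta cell markers examined reached a mean of 1 CPM (read counts scaled to the library total after TMM adjustment) in total RNA. None of 6 exocrine and duct markers did so, and Cpa1, Amy2a5 and Ptf1a were at 0 in all libraries. Of the other islet endocrine markers 2 of 6 did so, Gcg with a mean of 150.6 CPM in total RNA and Ppy with 2.14 CPM. Of 8 stromal, endothelial and immune markers 2 did so. No comparison was made with RNA from a control antibody, and RNA held by beads or antibody is therefore mixed with RNA held by hnRNPK. In bulk libraries such as these, fewer cells carrying an mRNA and fewer copies per cell cannot be told apart, and a level is a share of the library.

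Most proteasome mRNAs made up a smaller share of the IP than of total RNA, and a few made up a larger one. Of the 50 members, 48 had enough reads to be tested. In the whole-table fit, edgeR's quasi-likelihood test with Benjamini-Hochberg adjustment called 45 of these depleted in the IP and 3 enriched. Over all 16929 genes tested it called 5680 depleted, 33.6%, and 4892 enriched, 28.9%. For 45 members all 3 IP libraries lay below all 3 total RNA libraries, an arrangement seen in 39.3% of all genes tested. The reverse held for 3 members, and its share over all genes tested was not counted. The median log2 fold change, IP minus total RNA, was -2.62 over the members and -0.07 over all genes tested. Without Psmc3ip, 44 of 47 members were depleted and the median was -2.60.

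The differences were large as well as frequent. In the fit, 42 of 48 members (87.5%) were at least 2-fold lower in the IP, against 28.7% of all genes tested. At least 4-fold lower levels were found for 38 members (79.2% against 13.2%), and at least 8-fold lower levels for 17 (35.4% against 5.81%). Together the members held 0.398%, 0.425% and 0.422% of the counts of total RNA libraries 1, 2 and 3. In IP libraries 1, 2 and 3 they held 0.128%, 0.114% and 0.133%. The 3 enriched genes, Psme3, Psmd11 and Psmf1, supplied 48.1% ± 2.84 of all member counts in the IP libraries and 6.44% ± 0.246 in the total RNA libraries (SD, n = 3 each). Psme3 alone supplied 25.6% ± 0.583 of them in the IP, compared with 2.61% ± 0.084 of them in total RNA.

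**Figure D1:**
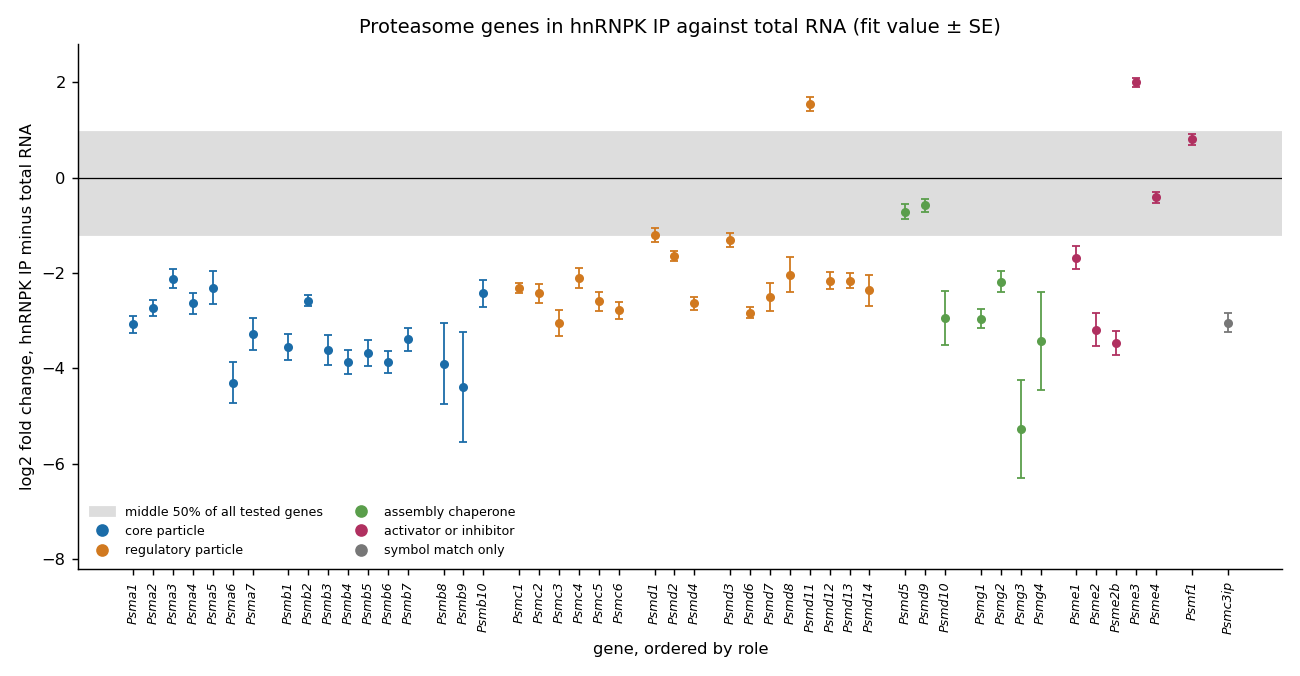
Log2 fold change of each of the 48 tested members, IP minus total RNA (points), ordered by role. Bars are approximate SEs derived from the F statistic of the test, and the middle 50% of all genes tested is in grey. Of the members, 3 lie above 0 (Psme3, Psmd11 and Psmf1), and every core particle gene lies below -2.

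Since hnRNPK is known to prefer C-rich RNA, the window of 30 nt with the most C in the longest annotated 3' UTR of each member is described first. This measure was chosen after the counts had been seen and is given with no test. Windows were read on the transcript's strand from GENCODE release M21 (GRCm38, the same build as mm10), and where several held equally many C the first was taken. Shown are the windows of the 3 enriched genes, of the depleted genes Psmb7 and Psmc4 that also hold many C, of the depleted ubiquitin receptor gene Psmd4 with its long run of C, and of Psme2, at the other end of the scale. Letters are those of DNA, 5′ to 3′, and capitals mark runs of at least 3 C.
Psmd11: CCCCtCCCtCCCtCCCtCCCtCCCtCCCtc
Psme3: CCCttccagctgagCCCCtCCCCtCCCCCC
Psmf1: ctccggcaacatcagCCCtccaCCCgatgc
Psmb7: accaCCCCtaCCCCaaCCCCattctaCCCC
Psmc4: cctCCCCacacttCCCCaggcacctgtCCC
Psmd4: ctggttCCCCCCCCCCCCCaagaaagctgc
Psme2: gctaaggattagaaggaaaataaatgattt

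The Psmd11 window (chr11:80472875-80472904, plus strand) is a repeat of C runs broken by single T and holds 23 C of 30. The Psme3 window (chr11:101323373-101323402, plus strand) ends in a nearly unbroken C stretch and holds 20. These were the highest values among the 48 tested members. The Psmf1 window (chr2:151718350-151718379, minus strand) holds 15, a number that 18 of the 48 members reached. Depleted genes had C-rich windows too, with 19 C in Psmb7 (chr2:38588101-38588130, minus strand), 18 in Psmc4 (chr7:28041774-28041803, minus strand) and 16 in Psmd4 (chr3:95033206-95033235, minus strand). The Psme2 window (chr14:55587455-55587484, minus strand) holds 1, and so does that of its near-copy Psme2b.

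Such windows are common in long 3' UTRs. Among 13345 tested genes with a 3' UTR of at least 30 nt, 9.97% had a window with at least 20 C, 1.83% one with at least 23 C and 59.6% one with at least 15 C. The genes that reached 20 C had a median 3' UTR of 2270 nt, against 1184 nt for all genes tested, and a median log2 fold change of 1.28. Of the 48 members, 2 reached 20 C, and both were enriched. Counted over single windows in place of genes, 0.0716% of the 22208240 windows held at least 20 C. A window count describes letters of the annotation, not a site bound in these cells.

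The core particle was low in the IP throughout. Here and in what follows, values by library are given in the order 1, 2 and 3 of each group as TMM-scaled CPM. A log2 fold change given with ± carries an approximate SE, its absolute value divided by the square root of the test's F statistic. This SE is rough for genes with few or no reads in some libraries. All 17 tested genes of the core particle were depleted, with a median log2 fold change of -3.40. The values ran from -4.30 to -2.13, apart from a fitted -4.40 for Psmb9 that rests on 13 IP reads. The alpha ring, whose subunits form the gate of the core, had a median of -2.73 over 7 genes. The beta ring, which holds the active sites, had a median of -3.61 over 7 genes. Both rings were below the median of all genes tested, and no tested gene of either ring had overlapping groups.

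Within the alpha ring Psma6 was the lowest and Psma3 the highest. Psma6 measured 4.55, 1.73 and 7.26 CPM in the IP libraries and 80.4, 96.5 and 92.4 CPM in the total RNA libraries, a log2 fold change of -4.30 ± 0.43. IP library 2 was the lowest and IP library 3 the highest of a wide IP spread, but all 3 stayed far under every total RNA library. Psma3 measured 6.08, 4.40 and 6.56 CPM in the IP libraries and 21.8, 27.5 and 25.2 CPM in the total RNA libraries, a log2 fold change of -2.13 ± 0.20. Its groups stood apart too, by less than those of Psma6. The remaining log2 fold changes were -3.08 for Psma1, -2.73 for Psma2, -2.64 for Psma4, -2.31 for Psma5 and -3.28 for Psma7. Psma8, which encodes the testis form of an alpha subunit, had reads in 1 IP library (8) and 1 total RNA library (12) and was not tested.

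The genes of the constitutive catalytic subunits were all depleted. Psmb5, which encodes the chymotrypsin-like subunit, measured 3.54, 1.76 and 3.02 CPM in the IP libraries and 29.6, 39.1 and 38.1 CPM in the total RNA libraries, a log2 fold change of -3.68 ± 0.27. Psmb6, which encodes the caspase-like subunit, measured 8.45, 6.40 and 11.8 CPM in the IP libraries and 116, 137 and 138 CPM in the total RNA libraries, a log2 fold change of -3.87 ± 0.22. Psmb7, which encodes the trypsin-like subunit and has the C-rich window shown above, measured 5.11, 4.12 and 7.83 CPM in the IP libraries and 55.03, 61.3 and 64.05 CPM in the total RNA libraries, a log2 fold change of -3.40 ± 0.24. For all 3 genes IP library 2 was the lowest library of all and total RNA library 1 the lowest of its group, and the groups stood far apart. Psmb2, a structural beta subunit gene, was the highest of the ring. It measured 10.01, 9.52 and 9.70 CPM in the IP libraries and 53.5, 58.5 and 63.5 CPM in the total RNA libraries, a log2 fold change of -2.58 ± 0.12. Its IP values were the closest to each other of any member. The other structural beta subunit genes had log2 fold changes of -3.56 for Psmb1, -3.61 for Psmb3 and -3.87 for Psmb4.

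Interferon can replace the constitutive catalytic subunits by Psmb8, Psmb9 and Psmb10, which form the immunoproteasome. The mRNAs of Psmb8 and Psmb9 were scarce in these cells, and that of Psmb10 was less so. Psmb8, the counterpart of Psmb5, measured 0.443, 0 and 0.274 CPM in the IP libraries and 3.02, 3.93 and 3.97 CPM in the total RNA libraries, a log2 fold change of -3.90 ± 0.85. Psmb9, the counterpart of Psmb6, measured 0, 0 and 0.324 CPM in the IP libraries and 2.20, 2.15 and 3.03 CPM in the total RNA libraries, a log2 fold change of -4.40 ± 1.15. Psmb10, the counterpart of Psmb7, measured 2.39, 1.49 and 1.95 CPM in the IP libraries and 7.98, 11.1 and 12.4 CPM in the total RNA libraries, a log2 fold change of -2.43 ± 0.28. Only Psmb10 had reads in every library. The 13 IP reads of Psmb9 all came from IP library 3, so without that library it was listed at 0 in the IP and its fitted value is no measure of size. Leaving out IP library 1 moved the value of Psmb8 to -4.63. Psmb11, the thymic beta subunit gene, had 0 counts in all 6 libraries, where 3 counts correspond to 0.0482 to 0.0909 CPM.

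The catalytic pairs also differed in level within total RNA. On a scale per length (TPM, counts divided by the length of the union of each gene's exons and scaled to a common total), Psmb5 stood at 122 ± 16.5 TPM and Psmb8 at 3.32 ± 0.434 TPM (SD, n = 3 each), a ratio of 36.8. Psmb6 stood at 214 ± 16.9 TPM and Psmb9 at 2.06 ± 0.332 TPM, a ratio of 104. Psmb7 stood at 54.1 ± 2.87 TPM and Psmb10 at 18.9 ± 3.59 TPM, a ratio of 2.86. The constitutive form was thus the more abundant mRNA of each pair, by far the least so for Psmb7 and Psmb10. The ratios depend on the length used, and with the longest transcript of each gene they were 20.7, 159 and 2.65. Coding sequences of these pairs are 61.8% to 63.8% identical.

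The regulatory particle was mostly low in the IP and held 1 enriched gene. Of its 17 genes, 16 were depleted and Psmd11 was enriched, with a median log2 fold change of -2.32 and a range of -3.05 to 1.55. That median lies nearer to 0 than the -3.40 of the core, a difference that was not tested. The base ATPases, which unfold substrates, were all depleted, with a median of -2.51 over 6 genes. Psmc3 was the lowest and measured 20.6, 9.16 and 15.9 CPM in the IP libraries and 119, 129.7 and 129.5 CPM in the total RNA libraries, a log2 fold change of -3.05 ± 0.27. Psmc4, with its C-rich window, was the highest and measured 24.1, 18.4 and 30.9 CPM in the IP libraries and 86.5, 116 and 113 CPM in the total RNA libraries, a log2 fold change of -2.10 ± 0.21. The groups did not overlap for either gene. The other ATPase genes had log2 fold changes of -2.32 for Psmc1, -2.43 for Psmc2, -2.60 for Psmc5 and -2.79 for Psmc6.

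The base also has large scaffold subunits, which dock ubiquitin shuttle proteins, and a ubiquitin receptor. Psmd1, a scaffold subunit gene, measured 77.1, 67.3 and 75.7 CPM in the IP libraries and 211, 149 and 147 CPM in the total RNA libraries, a log2 fold change of -1.21 ± 0.16. Total RNA library 1 was the highest here, an order that only 2 other members, Psmd11 and Psme4, shared. Psmd2, the other scaffold gene, had a log2 fold change of -1.64 ± 0.11. Psmd4, the receptor gene with the run of C shown above, measured 14.4, 16.4 and 19.9 CPM in the IP libraries and 101, 108 and 106 CPM in the total RNA libraries, a log2 fold change of -2.64 ± 0.14. Its groups stood well apart, with little spread inside them.

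The lid had 7 depleted genes and 1 enriched one, with a median of -2.16. Psmd14, which encodes the deubiquitinase that strips ubiquitin from substrates, measured 13.3, 5.76 and 14.7 CPM in the IP libraries and 50.3, 65.1 and 59.1 CPM in the total RNA libraries, a log2 fold change of -2.37 ± 0.32. IP library 2 was again the lowest. Psmd6, a structural lid subunit gene, was the lowest of the lid and measured 17.6, 13.7 and 14.7 CPM in the IP libraries and 107, 109 and 111 CPM in the total RNA libraries, a log2 fold change of -2.83 ± 0.12. Psmd11 encodes the lid subunit that clamps the regulatory particle to the core, and it went the other way. It measured 229.8, 239.5 and 167 CPM in the IP libraries and 77.8, 67.7 and 72.2 CPM in the total RNA libraries, a log2 fold change of 1.55 ± 0.15, or 2.92-fold higher in the IP. All 3 IP libraries lay above all 3 total RNA libraries, and IP library 3 was the lowest of the IP. The other lid genes had log2 fold changes of -1.32 for Psmd3, -2.51 for Psmd7, -2.04 for Psmd8, -2.16 for Psmd12 and -2.16 for Psmd13.

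**Figure D2:**
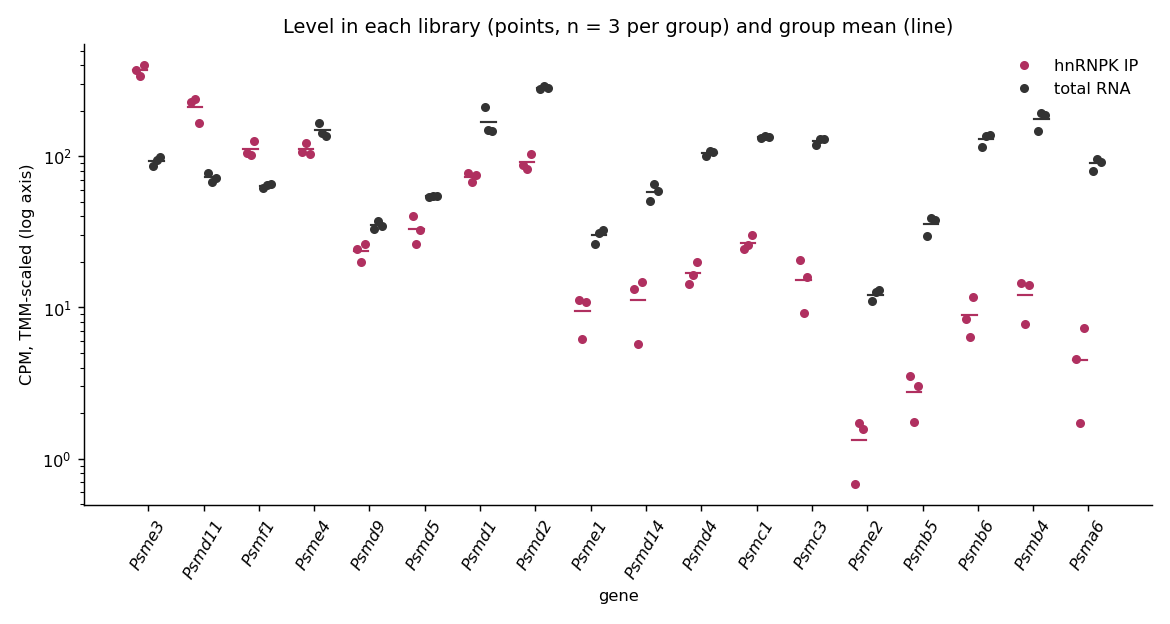
TMM-scaled CPM (log axis) of 18 members in each of the 3 hnRNPK IP libraries (red points) and 3 total RNA libraries (black points), with group means as lines. Psme3, Psmd11 and Psmf1 have every IP library above every total RNA library, and the other 15 genes have every IP library below. Over all genes tested 39.3% had every IP library below, and the share with every IP library above was not counted. By the test, a different criterion, 28.9% of all genes tested were called enriched.

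The assembly chaperones were all low, some of them only slightly. All 7 were depleted, with a median log2 fold change of -2.95. The values ran from -3.43 to -0.58, apart from a fitted -5.28 for Psmg3 that rests on 13 IP reads. Those of the base were mixed in size. Psmd9 measured 24.2, 19.99 and 26.1 CPM in the IP libraries and 33.3, 37.5 and 34.5 CPM in the total RNA libraries, a log2 fold change of -0.58 ± 0.14, and Psmd5 had a log2 fold change of -0.71 ± 0.16, both inside the middle 50% of all genes tested (-1.20 to 0.96). Psmd10, which encodes the ankyrin repeat protein gankyrin, measured 0.384, 1.49 and 2.62 CPM in the IP libraries and 10.8, 12.9 and 11.3 CPM in the total RNA libraries, a log2 fold change of -2.95 ± 0.56. Its IP libraries were far apart, and leaving out IP library 3, the highest, moved the value to -3.71.

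The core chaperone genes were low and thinly covered. Psmg2 measured 5.85, 3.61 and 5.16 CPM in the IP libraries and 20.1, 24.6 and 21.8 CPM in the total RNA libraries, a log2 fold change of -2.18 ± 0.21, the highest of the 4, and Psmg1 had a log2 fold change of -2.96. Psmg3 measured 0, 0 and 0.324 CPM in the IP libraries and 3.53, 4.95 and 5.27 CPM in the total RNA libraries, a log2 fold change of -5.28 ± 1.02. As with Psmb9, its 13 IP reads came from IP library 3 alone, and without that library it was listed at 0 in the IP. Psmg4 measured 0, 3.15 and 0.549 CPM in the IP libraries and 12.02, 13.8 and 13.7 CPM in the total RNA libraries, a log2 fold change of -3.43 ± 1.02. Nearly all of its IP signal came from IP library 2, and the value moved to -5.47 without that library. The call of Psmg4 was lost with DESeq2 (-3.38), with an offset for gene length (-2.04), and without total RNA library 1 (-3.45), 2 (-3.35) or 3 (-3.36).

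The activators and the inhibitor did not move together. Of the 6 genes 4 were depleted and 2 enriched, with a median of -1.05 and a range of -3.46 to 2.00. Psme1 and Psme2 encode the partner subunits of the interferon-induced cap. Psme1 measured 11.1, 6.19 and 10.9 CPM in the IP libraries and 26.5, 31.2 and 32.8 CPM in the total RNA libraries, a log2 fold change of -1.68 ± 0.24. Psme2 measured 0.679, 1.73 and 1.57 CPM in the IP libraries and 10.96, 12.6 and 12.96 CPM in the total RNA libraries, a log2 fold change of -3.19 ± 0.35. Both were lower in every IP library than in any total RNA library. Psme2b, which is 99.3% identical to Psme2 over the 720 nt of coding sequence, measured 5.35, 3.40 and 6.88 CPM in the IP libraries and 50.3, 60.3 and 62.4 CPM in the total RNA libraries, a log2 fold change of -3.46 ± 0.25. How the counting divided reads between these near-identical genes is not known, so their separate levels are uncertain.

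Psme3 encodes the nuclear activator that acts without ubiquitin, and it had the highest log2 fold change of all members. Psme3 (chr11:101316213-101323537, plus strand) measured 372, 342 and 402 CPM in the IP libraries and 85.8, 94.9 and 99.1 CPM in the total RNA libraries, a log2 fold change of 2.00 ± 0.10, or 3.99-fold higher in the IP. The lowest IP library was above 3 times the highest total RNA library, and the IP libraries were close to each other. Psme4, which encodes a large single-chain nuclear activator, measured 107, 122 and 104 CPM in the IP libraries and 166, 143 and 136 CPM in the total RNA libraries, a log2 fold change of -0.42 ± 0.11. The groups did not overlap, but the gap was small, and without total RNA library 1 the value was -0.29 and the call was lost. Psmf1 encodes a protein first described as an inhibitor of the core. It measured 106, 102 and 126 CPM in the IP libraries and 61.4, 64.9 and 65.97 CPM in the total RNA libraries, a log2 fold change of 0.80 ± 0.11, or 1.74-fold higher in the IP. All 3 IP libraries lay above all 3 total RNA libraries. The log2 fold changes of Psmf1 and Psme4 nonetheless lay between the quartiles of all genes tested (-1.20 and 0.96). That of Psme3 lay above the upper one. Psmd11 lies at chr11:80428615-80473248 on the plus strand and Psmf1 at chr2:151715812-151744186 on the minus strand. Psmc3ip, the symbol match outside the proteasome, measured 2.01, 2.79 and 3.02 CPM in the IP libraries and 20.5, 20.9 and 23.1 CPM in the total RNA libraries, a log2 fold change of -3.04 ± 0.20. It was as low in the IP as the subunit genes.

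The order of the mRNAs by level per length differed between IP and total RNA. In total RNA Psmb4 was the highest at 278 ± 37.5 TPM, followed by Psmc5 at 236 ± 19.3, Psma6 at 224 ± 19.9, Psmd2 at 218 ± 9.91, Psmb6 at 214 ± 16.9, Psmc1 at 214 ± 8.13 and Psme2b at 212 ± 19.2 (SD, n = 3). From Psmc5 to Psme2b, neighbours differed by less than 1 SD (the larger of each pair). The next gene, Psmc4, stood at 149.7 ± 21.3 TPM. Psme3 ranked 16 in total RNA at 97.4 ± 4.79 TPM, Psmd11 ranked 36 at 35.1 ± 3.03 TPM and Psmf1 ranked 37 at 30.7 ± 0.814 TPM. In the IP Psme3 ranked 1 at 426 ± 10.2 TPM and Psmd11 reached 113 ± 26.9 TPM. Psmb4 ranked 16 there, at 20.8 ± 5.84 TPM. With the longest transcript as length, Psmb4 was still 1 in total RNA and Psme3 still 1 in the IP, but the order of other genes changed. In total RNA Psmb6 then ranked 2, Psmd6 ranked 6, Psmc5 ranked 7, Psme2b ranked 10 and Psme3 ranked 25.

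Each core holds its subunits in equal numbers, but the measured levels of their mRNAs were unequal. How multiply aligned reads were counted is not given, and similar copies of a gene, such as pseudogenes, may lower its count. Low levels, such as those of Psma5 and Psmb3, are therefore uncertain, though no pseudogene named after either was among those left out. The pseudogenes left out carry the names of Psmb5, Psmb6 and Psmb7, so the levels and pair ratios of these genes are uncertain too. Among the tested alpha ring genes, total RNA levels ran from 9.52 ± 1.12 TPM for Psma5 to 224 ± 19.9 TPM for Psma6. In the beta ring they ran from 20.8 ± 2.92 TPM for Psmb3 to 278 ± 37.5 TPM for Psmb4. The base ATPases lay closer together, from 60.05 ± 3.21 TPM for Psmc6 to 236 ± 19.3 TPM for Psmc5. With the longest transcript as length, Psmc2 was the lowest of the ATPase genes at 77.2 TPM and Psmc1 the highest at 215 TPM, while the extremes of both rings were the same genes.

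**Figure D3:**
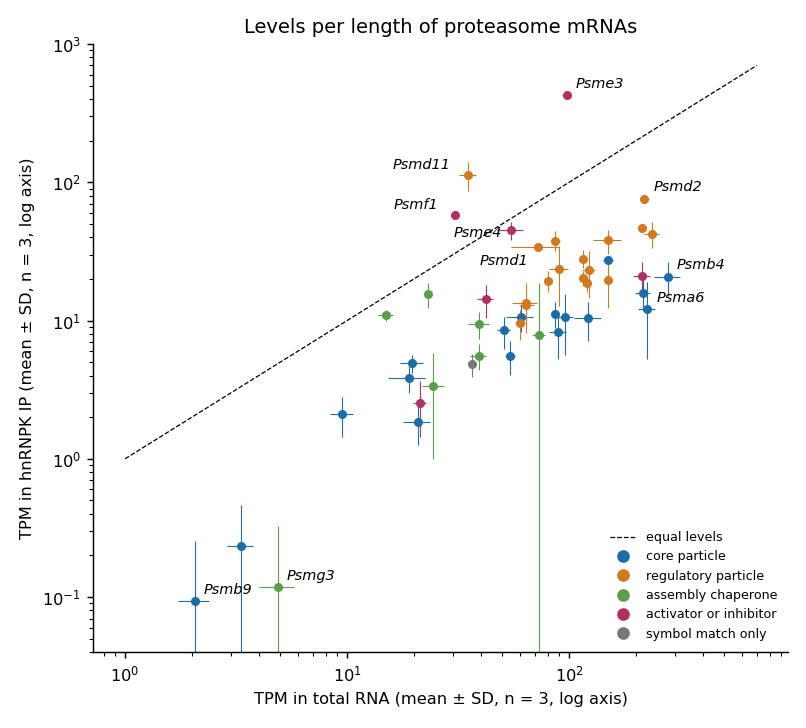
Level per length of the 48 tested members in total RNA (x axis) and in the IP (y axis), in TPM on log axes, as means with SD bars (n = 3 each) and the line of equal levels dashed. Only Psme3, Psmd11 and Psmf1 lie above the line, and bars that run off the lower edge reach 0 or below.

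Transcript length and 3' UTR length also differed between members. The choice of members did not use them directly. But the group was selected on its difference between IP and total RNA, which correlated with both lengths over all genes tested. The lengths are therefore not independent of the choice. The median longest transcript was 1851 nt over the members tested and 2985 nt over all genes tested. Across the 48 members, the log2 fold change had a Spearman correlation of 0.564 with the longest transcript, 0.536 with the coding length, 0.397 with the 3' UTR length and 0.310 with the C count of the best window. Across all genes tested, the corresponding values were 0.356 (16908 genes), 0.270 (13471 genes), 0.499 (13396 genes) and 0.490 (13345 genes). These are descriptions over genes measured in the same 6 libraries, and the length and C measures are related to each other.

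The enriched genes had long 3' UTRs, but so did some depleted ones. The 3' UTRs of Psmd11, Psme3 and Psmf1 are 1539, 1665 and 2822 nt long, while the 45 depleted members had a median of 237 nt and a range of 44 to 2842 nt. Of 7 members with at least 1500 nt, 3 were enriched and 4 were depleted. The depleted ones were Psmd5 with 2842 nt, Psma2 with 2171 nt, Psma3 with 1952 nt and Psmd9 with 1811 nt, and their log2 fold changes ran from -2.73 to -0.58. The shares called in each direction among all tested genes of at least 1500 nt were not counted. All tested genes with 3' UTRs of 1000 to 2000 nt had a median log2 fold change of 0.05, and those with 2000 to 4000 nt had 0.56. Set against all tested genes in the same range of 3' UTR length, 30 of the 48 members lay below the lower quartile, which holds 25% of those genes. A further 16 lay between the quartiles, and Psmd11 and Psme3 lay above the upper one. Set against tested genes with the same C count in the best window, 35 members lay below the lower quartile and 9 between the quartiles. Psme3 and Psmf1 lay above the upper one, and 2 members had too few genes to compare with. Psmd11, at 23 C, lay between the quartiles there (0.706 to 2.055). The 1021 tested genes with a 3' UTR of 120 to 250 nt, some members among them, had a median log2 fold change of -1.48. Whether 3' UTR length accounts for the low IP shares of the members was not tested. With an offset for gene length in the fit, the median of the members was -1.99 and that of all genes tested 0.04. In that fit 44 members were depleted and 3 enriched, and 19 of 48 moved towards 0 by over 1.5 times. Of all 16908 genes tested in it, 5447 were depleted and 5341 enriched.

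**Figure D4:**
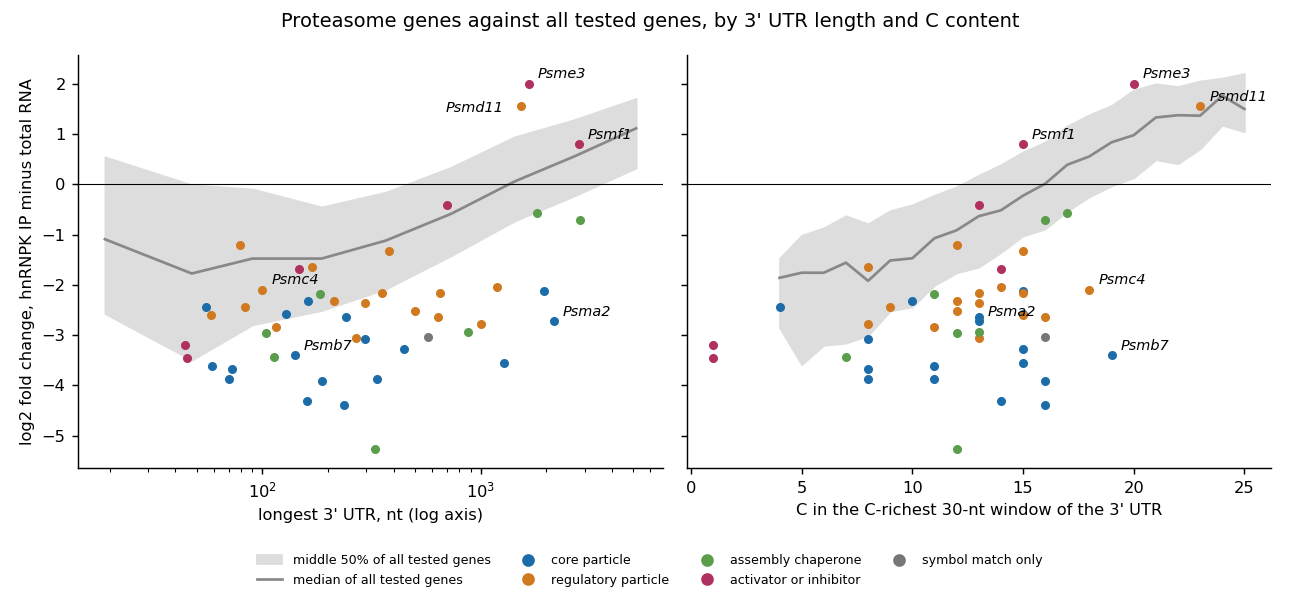
Log2 fold change, IP minus total RNA, of the 48 tested members (points, coloured by role) against the length of the longest 3' UTR in nt (left, log axis) and the number of C in its C-richest window of 30 nt (right), with the median and middle 50% of all tested genes in bins. Most members lie under the grey band. On the right, Psmb7 with 19 C and Psmc4 with 18 C lie far below it, while on the left Psmc4 lies inside it.

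Many members also had the same order of libraries within a group. IP library 2 was the lowest IP library for 31 of the 48 members (64.6%), against 41.3% of all genes tested, and IP library 3 the highest for 25 (52.1% against 36.2%). Total RNA library 1 was the lowest of its group for 43 members (89.6% against 47.0%) and the highest for Psmd1, Psmd11 and Psme4. The median coefficient of variation of a member was 24.9% in the IP and 9.24% in total RNA. The extremes in the IP were Psmb2 with 2.54% and Psmb9 with 173%. Direction held for each of the 48 members in every fit tried, while scaling moved sizes. With library totals alone in place of TMM factors, the median of all genes tested shifted by -0.43, that of the members was -3.05, and 3447 genes were enriched and 7278 depleted over the whole table. Psmf1 came closest to 0 of the enriched genes in that fit, at 0.36, and stayed enriched.

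Some members share exons with other genes, and whether the counting used strand is not stated. Overlaps of at least 10% of exon length with another gene were found for Psmb5 (12.1%, Mir686), Psmb7 (11.8%, Nek6), Psmb8 (14.7%, Gm20496), Psmd9 (25.5%, Gm26745), Psmd13 (10.1%, Sirt3) and Psmc3ip (21.2%, Mlx). Reads of those stretches may belong to either gene. None was found for Psme3, Psmd11 or Psmf1.

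Genes that work with the proteasome but lie outside the symbol pattern were found on both sides. Of 30 such genes, 16 were depleted, 10 enriched and 4 not called, with a median log2 fold change of -0.52. Over all genes tested 33.6% were depleted and 28.9% enriched. Among the highest were Ubqln4 at 1.43, which encodes a shuttle protein that carries ubiquitin-tagged substrates, and Uba1 at 1.00, which encodes the main ubiquitin-activating enzyme. Among the lowest were Sem1 at -3.98, which encodes a small lid subunit, and Rps27a at -3.71, which encodes ubiquitin fused to a ribosomal protein. The value of Rps27a rests on 13 IP reads, with an approximate SE of 0.99, and the gene has near-identical copies, so its counts are uncertain. A further 3 were picked for their roles after their values were seen. Pomp, which encodes a maturation factor of the core, was depleted at -2.95, and Adrm1, which encodes a ubiquitin receptor of the base, stood at -0.54 and was not called. Nfe2l1, which encodes a transcription factor that drives proteasome genes when the protease is inhibited, was depleted at -0.29.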

How the data were processed

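RNA of 3 hnRNPK IP and 3 Total RNA libraries was analysed. The authors deposited raw read counts per gene, one table per library. Per the submitters' processing notes, reads were aligned to mm10 with TopHat2 and counted with featureCounts; no source used here gives versions, the strand setting, the handling of multiply aligned reads or whether polyadenylated RNA was selected. Of 53379 gene identifiers, 53274 matched GENCODE release M21.

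Counts were fitted in R 4.3.3 with edgeR 4.0.16 (TMM factors, filterByExpr with a minimum count of 10 and a minimum total of 15, glmQLFit and glmQLFTest, group only), with Benjamini-Hochberg adjustment over all 16929 genes tested and a threshold of 0.05. CPM (TMM-scaled) and TPM were computed from the deposited counts. The 3' UTR of a gene was the longest among its complete protein-coding transcripts. Over the 48 members tested, adjusted p-values of the edgeR fit ran from 1.57e-06 to 0.0189.

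The members, the gene lists and the naming rule were chosen with earlier results of these data known. By that rule every member is named, and values in each library are given for 13 listed members and for the highest and lowest of each role, 27 in all. Of genes outside the symbol pattern, the rule took the 3 highest and 3 lowest, and some of these are not reported here. Alternatives were DESeq2 1.42.0, library totals, no filter, limma 3.58.1 voom, a replicate block, an offset for gene length (lowess, span 0.3), halved counts and leaving out each library. The labels do not say whether replicate libraries stem from separate cultures, and p-values then reflect only how far these libraries differ, possibly for technical reasons. Libraries of a group differed by more than sampling noise (chi-square per degree of freedom 6.4 to 123). Floors of 3 counts cover counting error only.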

Additional observations from a re-analysis of the deposited data

How the results depend on the processing

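All 48 members kept their direction in the 13 alternatives tried, 3 stayed enriched in each, and 43 to 45 were depleted. The lost calls were those of Psmg4 and, without total RNA library 1, Psme4. Over all genes, these fits tested 15515 to 27077 and called 4714 to 7278 depleted and 3447 to 5341 enriched. With library totals alone, medians were -3.05 over all members, -3.83 for the core, -2.76 for the regulatory particle, -1.48 for activators and inhibitor and -3.38 for the assembly chaperones. With the length offset they were -1.99 over all members, -2.96 for the core, -1.72 for the regulatory particle and -1.91 for the assembly chaperones. Leaving out 1 library at a time, the median ranged from -2.76 to -2.53 over all members, from -3.77 to -3.20 for the core and from -2.97 to -2.51 for the assembly chaperones. The members' median minus that of all genes was -2.63 to -2.03 over all fits.

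Libraries with the same number did not deviate together (Pearson's r across genes 0.000874, -0.0709 and 0.12 for numbers 1, 2 and 3). With 3 libraries per group and a wide spread in the IP, this cannot exclude that libraries of the same number share a lysate. With the replicate block the calls were 3 enriched and 45 depleted, and the members' median was -2.64. Of all 16929 genes tested, that fit called 4384 enriched and 5364 depleted. Few or no IP reads lay behind Psma8, Psmb8, Psmb9, Psmb11 and Psmg3, and those of Psmg4 came mostly from IP library 2. With limma-voom the values of Psmb8, Psmb9, Psmg3 and Psmg4 moved away from 0 by over 1.5 times.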
